A study of Arabidopsis thaliana with 18 samples.

Results

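SDP1, AIM1 and ICL encode enzymes at 3 stages, in this order, of the pathway that turns seed oil into sugar in a germinating seedling. They were found as the probe sets that the array annotation assigns to exactly 1 of these genes, which gave 1 probe set for each gene, out of 13350 genes that a probe set lists alone. The RNA came from the aerial parts of Arabidopsis thaliana seedlings of the accession Col-0, grown in the dark for 4 days on agar medium and then either kept dark or exposed to white light (70 to 80 µmol per square metre and second) for 0.5 h or 4 h. Each light condition was measured in steady-state RNA (total RNA) and in polysome RNA, the transcripts that sediment with several ribosomes in a sucrose gradient, on 3 arrays per group that the labels describe as biological replicates, 18 arrays in 6 groups. All 6 groups share genotype and age, and the controls are the dark seedlings of the same RNA kind.

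Oil is stored in the cotyledons as triacylglycerol in oil bodies coated with oleosins. A lipase releases fatty acids, peroxisomal β-oxidation cuts them to acetyl-CoA, and the glyoxylate cycle joins acetyl-CoA units into organic acids from which sugar is made. This route feeds the seedling until photosynthesis takes over, and it is known as a feature of the first days after germination, in darkness as well. SDP1 (SUGAR-DEPENDENT1, AT5G04040) encodes the oil-body lipase that starts the breakdown. AIM1 (ABNORMAL INFLORESCENCE MERISTEM, AT4G29010) encodes a multifunctional β-oxidation protein that hydrates the enoyl-CoA and oxidises the resulting hydroxyacyl-CoA. ICL (AT3G21720) encodes isocitrate lyase, which is specific to the glyoxylate cycle.

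Values are MAS5 signals, linear brightness summaries of a probe set in arbitrary units, with nearly the same trimmed mean on every array. They can be compared between arrays for 1 probe set, but not between probe sets. Means are given ± SD with n = 3 arrays; log2 differences are given ± SE from a limma fit to all 18 arrays and 15922 probe sets, with adjusted p from the Benjamini-Hochberg method and a threshold of 0.05. Because the arrays have this common level, only relative changes are visible. In whole aerial tissue, fewer cells of a type and less RNA per cell cannot be told apart. Array medians lay between 154 and 206. Of 15 genes chosen to check the labelled tissue, 4 were listed alone on a probe set. The shoot genes RCA (4825 to 26172.5), LHCB4.1 (5993 to 22914) and PORB (2141.5 to 14027) were well measured on all 18 arrays. The root-hair gene EXPA7 lay between 3.1 and 50.4, under the filter on dim probe sets, and was the only root gene seen. The seed storage protein genes of that list had no probe set that lists them alone and were not analysed here.

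SDP1, the lipase gene at the head of the pathway, had lower signals after 4 h of light in both kinds of RNA. In steady-state RNA the signals of replicates 1 to 3 were 2062.5, 1764.5 and 1592 in the dark, 1699, 1551 and 1319.6 at 0.5 h, and 1068, 976 and 804 at 4 h. In polysome RNA they were 1676, 2048 and 2007 in the dark, 1588, 1963.5 and 1981 at 0.5 h, and 968.5, 1122 and 898 at 4 h. In each kind of RNA the 4 h arrays lay below every dark and every 0.5 h array, and the dark and 0.5 h arrays overlapped.

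The group means of SDP1, from highest to lowest, were 1910.4 ± 204 in dark polysome RNA, 1844 ± 222 in 0.5 h polysome RNA, 1806 ± 238 in dark steady-state RNA, 1523 ± 191 in 0.5 h steady-state RNA, 996 ± 114 in 4 h polysome RNA and 949.5 ± 134 in 4 h steady-state RNA. Of the neighbours in this order, 0.5 h steady-state and 4 h polysome RNA were separated, and all others overlapped. The 4 h change from dark was -0.93 ± 0.164 in steady-state RNA (adjusted p = 0.000152) and -0.94 ± 0.164 in polysome RNA (adjusted p = 0.000138), so SDP1 fell 1.90-fold and 1.92-fold. The difference between these changes was -0.01 ± 0.232, with a 95% interval from -0.50 to 0.47 (adjusted p = 0.998). After 0.5 h, SDP1 was at -0.25 ± 0.164 in steady-state RNA (adjusted p = 0.843) and at -0.05 ± 0.164 in polysome RNA (adjusted p = 1). All 3 pairs of equal replicate number were lower at 0.5 h in steady-state RNA, by -0.28 to -0.19, a difference that did not pass the test.

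**Figure D1:**
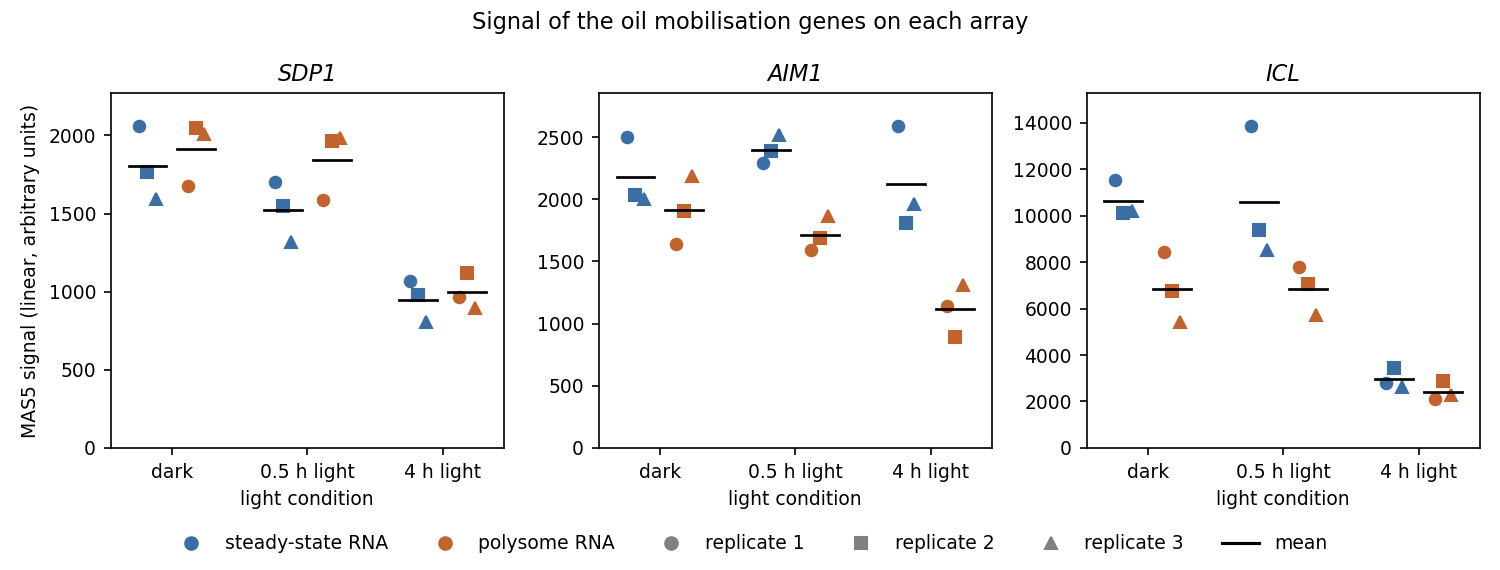
MAS5 signal (linear, arbitrary units, y axis from 0, a separate scale per gene) of SDP1, AIM1 and ICL by light condition; each point is 1 array, its shape gives the replicate number, blue is steady-state RNA, orange is polysome RNA and the black line is the mean of 3 arrays. SDP1 and ICL drop at 4 h in both colours, whereas the 4 h steady-state arrays of AIM1 (1809.9 to 2591) overlap the dark ones and its 4 h polysome arrays (896 to 1307) lie below all others.

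AIM1, the β-oxidation gene among the 3, was lower after 4 h of light in polysome RNA, and was not called in steady-state RNA. Its steady-state signals in replicates 1 to 3 were 2502, 2032 and 1999 in the dark, 2295, 2386 and 2517 at 0.5 h, and 2591, 1809.9 and 1958 at 4 h. Its polysome signals were 1643, 1907 and 2189.9 in the dark, 1588, 1687 and 1864 at 0.5 h, and 1142, 896 and 1307 at 4 h. The steady-state groups overlapped one another, while the 4 h polysome arrays were lower than any other array of the series.

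The group means of AIM1, in descending order, were 2399 ± 112 in 0.5 h, 2178 ± 281 in dark and 2119.5 ± 415 in 4 h steady-state RNA, then 1914 ± 273 in dark, 1713 ± 140.1 in 0.5 h and 1115 ± 207 in 4 h polysome RNA. The last step, between 0.5 h and 4 h polysome RNA, was the 1 place where neighbours did not overlap. In steady-state RNA the change from dark to 4 h was -0.05 ± 0.172, with a 95% interval from -0.41 to 0.31 (adjusted p = 0.867). In polysome RNA AIM1 fell by 0.79 ± 0.172 on the log2 scale (adjusted p = 0.00119), a 1.72-fold decrease. The test of the difference itself, the change of polysome minus steady-state signal from dark to 4 h, gave -0.74 ± 0.243, with a 95% interval from -1.25 to -0.23 and all 3 pairs of equal replicate number negative (-0.92 to -0.58). Its unadjusted p was 0.00666 and its adjusted p 0.288 in the limma fit across all probe sets, so the difference in response between the kinds of RNA did not pass. At 0.5 h AIM1 was at 0.15 ± 0.172 in steady-state RNA (adjusted p = 0.961) and -0.15 ± 0.172 in polysome RNA (adjusted p = 1).

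ICL, the glyoxylate cycle gene, had the widest range of the 3 genes over the 6 groups, with a highest group mean 4.39 times the lowest, against 2.01 for SDP1 and 2.15 for AIM1. The steady-state signals of replicates 1 to 3 were 11529, 10126 and 10222 in the dark, 13877, 9381 and 8514.5 at 0.5 h, and 2778, 3444 and 2637 at 4 h. Polysome signals were 8417, 6744.5 and 5434 in the dark, 7803, 7045 and 5707 at 0.5 h, and 2100.3, 2885 and 2282.5 at 4 h. All 6 of the 4 h arrays lay below all 12 of the dark and 0.5 h arrays. In the dark and at 0.5 h, every steady-state array was above every polysome array of the same condition.

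The group means of ICL were 10626 ± 784 in dark and 10591 ± 2879 in 0.5 h steady-state RNA, 6865 ± 1495 in dark and 6852 ± 1061 in 0.5 h polysome RNA, and 2953 ± 431 and 2423 ± 411 in 4 h steady-state and polysome RNA. Thus 3 levels were separated by gaps between arrays (dark and 0.5 h steady-state, dark and 0.5 h polysome, and both kinds at 4 h), and within each level the groups overlapped. The upper gap was narrow, from 8417 in dark polysome RNA to 8514.5 in 0.5 h steady-state RNA. The lower gap ran from 3444 in 4 h steady-state RNA to 5434 in dark polysome RNA. From dark to 4 h ICL fell 3.62-fold in steady-state RNA, a log2 change of -1.85 ± 0.197 (adjusted p = 3.29e-07), and 2.81-fold in polysome RNA, a change of -1.49 ± 0.197 (adjusted p = 5.36e-06). The difference between the changes was 0.36 ± 0.278 (95% interval -0.22 to 0.94, adjusted p = 0.859). At 0.5 h the changes were -0.04 ± 0.197 and 0.01 ± 0.197 (adjusted p = 0.997 and 1), with 95% intervals from -0.45 to 0.38 and from -0.40 to 0.42.

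None of the 3 genes passed the test after 0.5 h of light in either kind of RNA (limma), and 0 of 3 had an unadjusted p below 0.05. Over all 15922 probe sets, 1.43% were called at 0.5 h in steady-state RNA and 1.31% in polysome RNA. An unadjusted limma p below 0.05 was found for 1232 of them in steady-state RNA and 906 in polysome RNA. With such shares, 0 of 3 says little about these genes. After 4 h, 2 of 3 genes (SDP1 and ICL) were lower than in the dark in steady-state RNA, where 17.1% of all probe sets were called lower, and the median change of the 3 was -0.93 against -0.01 over all probe sets. In polysome RNA all 3 were lower, where 20.1% of all were, with a median of -0.94 against -0.09.

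The signals at 4 h were also compared directly with those at 0.5 h. From 0.5 h to 4 h SDP1 changed by -0.68 ± 0.164 in steady-state RNA (adjusted p = 0.00282) and -0.89 ± 0.164 in polysome RNA (adjusted p = 0.000292). ICL changed by -1.82 ± 0.197 (adjusted p = 5.42e-07) and -1.50 ± 0.197 (adjusted p = 6.32e-06). AIM1 was at -0.20 ± 0.172 in steady-state RNA (adjusted p = 0.429) and fell by 0.63 ± 0.172 in polysome RNA (adjusted p = 0.00728), a call that ended without replicate 2 of the 4 h polysome group, its lowest array (log2 change -0.48, adjusted p = 0.054). These comparisons called 17.5% of all probe sets lower in steady-state RNA and 18.9% in polysome RNA, beside 2 of 3 and 3 of 3 of these genes.

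**Figure D2:**
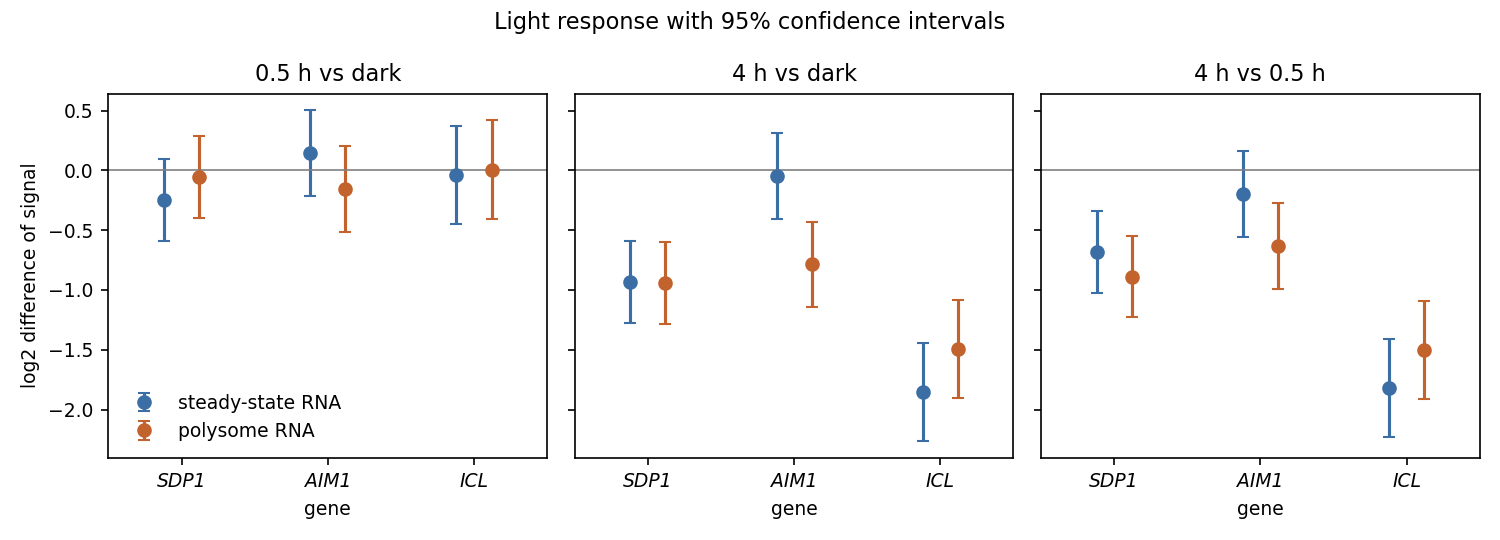
Log2 difference of signal for SDP1, AIM1 and ICL in 3 comparisons of light conditions, with 95% confidence intervals from the fit to 18 arrays; blue is steady-state RNA and orange polysome RNA. All 6 intervals of the 0.5 h comparison include 0, and in the 4 h comparison with dark the steady-state interval of AIM1 (-0.41 to 0.31) does while the other 5 do not.

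The size of the 4 h change was compared between genes within arrays, as the log2 difference of a pair of genes on each array. In steady-state RNA the change of ICL minus that of SDP1 was -0.93 ± 0.146, that of ICL minus that of AIM1 was -1.81 ± 0.245, and that of SDP1 minus that of AIM1 was -0.88 ± 0.135 (SE from the 6 arrays). In all 3 steady-state pairs, and for ICL against SDP1 in polysome RNA, the dark arrays were separated from the 4 h arrays. The 3 pairs share the same 3 genes and are not independent. How often other pairs of genes separate was not counted. In polysome RNA the differences were -0.55 ± 0.275 for ICL against SDP1, -0.71 ± 0.414 for ICL against AIM1 and -0.15 ± 0.262 for SDP1 against AIM1. An exact two-sided permutation test gave p = 0.1 for the 3 steady-state pairs and for ICL against SDP1 in polysome RNA, the smallest that 3 against 3 arrays allow, and 0.2 and 0.6 for the others. Adjusted over the 6 pairs these became 0.15, 0.24 and 0.6. With a smallest p of 0.1 this permutation test cannot pass a threshold of 0.05, so it does not decide whether the genes differed in response.

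The ratio of polysome to steady-state signal asks how much of a transcript was on polysomes relative to the other transcripts of the same condition. Of the 3 genes, AIM1 had the lowest mean ratio at 4 h. Its log2 ratios in pairs of equal replicate number 1 to 3 were -0.61, -0.09 and 0.13 in the dark, -0.53, -0.50 and -0.43 at 0.5 h, and -1.18, -1.01 and -0.58 at 4 h. At 4 h the mean of -0.93 ± 0.172 passed the test (adjusted p = 0.00144), and the polysome arrays lay below the steady-state arrays. At 0.5 h the ratio was -0.49 ± 0.172 (adjusted p = 0.0848, and 0.0317 with the replicate number as a block), and in the dark -0.19 ± 0.172 (adjusted p = 0.592), where the groups overlapped.

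ICL was lower in polysome than in steady-state RNA in the dark, with log2 ratios of -0.45, -0.59 and -0.91 in pairs 1 to 3 and a mean of -0.65 ± 0.197 (adjusted p = 0.0459). That call was close to the threshold: the adjusted p was 0.0575 with quantile normalization, 0.134 with a common median and between 0.0198 and 0.189 when single arrays were left out, and 0.00628 with the replicate block. The call ended without any dark steady-state replicate or without dark polysome replicate 2 or 3. At 0.5 h the ratios were -0.83, -0.41 and -0.58, a mean of -0.61 ± 0.197 (adjusted p = 0.0629, and 0.01 with the block). At 4 h they were -0.40, -0.26 and -0.21, a mean of -0.29 ± 0.197 (adjusted p = 0.395), and the groups overlapped.

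SDP1 gave log2 ratios of -0.30, 0.21 and 0.33 in the dark, -0.10, 0.34 and 0.59 at 0.5 h, and -0.14, 0.20 and 0.16 at 4 h. Replicate pair 1 was negative and pairs 2 and 3 were positive in every condition. The means were 0.08, 0.28 and 0.07 (each ± 0.164), with adjusted p of 0.839, 0.335 and 0.842. In the dark 4.55% of all probe sets were lower in polysome RNA, beside 1 of these 3 genes (ICL). At 0.5 h it was 4.28%, beside 0 of 3 (limma). There AIM1 and ICL had an unadjusted limma p of 0.0102 and 0.00597. Of all 15922 probe sets, 3700 had one below 0.05, in either direction. With the block AIM1 and ICL were both called lower at 0.5 h, beside 9.13% of all probe sets. At 4 h 7.84% of all were lower, beside 1 of 3 (AIM1).

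The change of the ratio with light passed for none of the 3 genes. From dark to 0.5 h it was 0.19 ± 0.232 for SDP1, -0.30 ± 0.243 for AIM1 and 0.04 ± 0.278 for ICL, in a comparison where 0% of all probe sets was called (limma; 257 had an unadjusted p below 0.05, and 0 were called with the replicate block). From dark to 4 h 0.364% of all probe sets were called, and the median over all was -0.10.

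**Figure D3:**
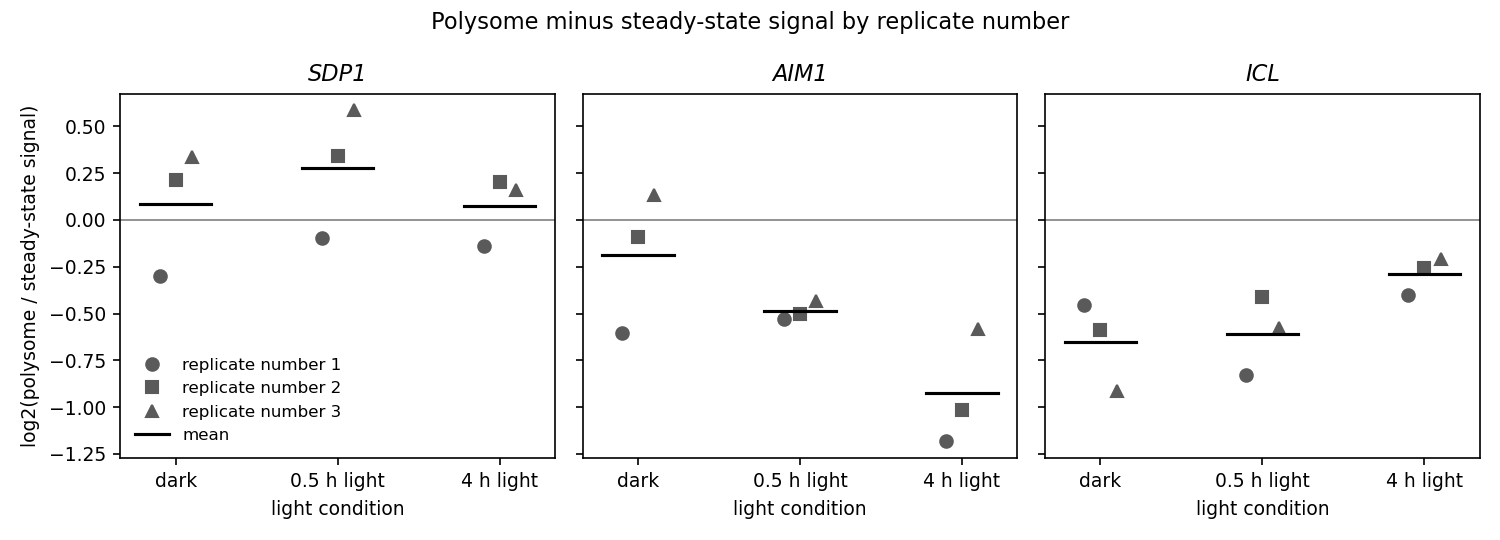
Log2 ratio of polysome to steady-state signal of SDP1, AIM1 and ICL by light condition; each point pairs the arrays of 1 replicate number, the shape gives the number, and the black line is the mean. The AIM1 ratio averages -0.19 in the dark and -0.93 at 4 h, the ICL ratio -0.65 and -0.29, and the SDP1 ratio stays between 0.07 and 0.28 with replicate 1 below 0 throughout. The change of the ratio from dark to 4 h passed the limma test for none of these genes.

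Other genes of the route were taken from a list of 48. The array annotation listed 6 of these alone on a probe set, among them the 3 genes above. It listed no gene for 8730 probe sets, and the rest of the route could not be named here. Unseen genes included MFP2 and KAT2 of β-oxidation, MLS of the glyoxylate cycle and PCK1 of gluconeogenesis. OLEO3, an oleosin of the oil-body coat, fell from 2536 ± 271 in the dark to 394 ± 101 at 4 h in steady-state RNA, a log2 change of -2.72 ± 0.211 (adjusted p = 4.31e-09). Its polysome signal fell from 3790.2 ± 209 to 764 ± 207, a change of -2.35 ± 0.211 (adjusted p = 3.3e-08). PPDK, pyruvate orthophosphate dikinase, which makes phosphoenolpyruvate and is known to act in gluconeogenesis in Arabidopsis seedlings, fell from 4808 ± 305 to 1199 ± 43.8 in steady-state RNA (-2.0 ± 0.145, adjusted p = 1.69e-09). In polysome RNA PPDK fell from 4539 ± 490 to 1081 ± 169 (-2.08 ± 0.145, adjusted p = 9.94e-10). For both genes, every 4 h array lay below every dark array of the same RNA kind. How many of all probe sets separated in this way was not counted. By the limma call, 17.1% of all were lower at 4 h in steady-state RNA and 20.1% in polysome RNA.

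Of these 2 further genes, 0 were called at 0.5 h in either kind of RNA (limma, and 0 with an unadjusted p below 0.05). Of all probe sets, 1.43% were called in steady-state and 1.31% in polysome RNA, so 0 of 2 says little about these genes. OLEO3 was at -0.05 ± 0.211 in steady-state and -0.02 ± 0.211 in polysome RNA, and PPDK at -0.23 ± 0.145 and 0.01 ± 0.145. OLEO3 was higher in polysome than in steady-state RNA at 4 h, by 0.95 ± 0.211 (adjusted p = 0.00526), where 5.55% of all probe sets were higher; its ratio was 0.58 ± 0.211 in the dark (adjusted p = 0.0971, and 0.0163 with the block) and 0.62 ± 0.211 at 0.5 h (adjusted p = 0.0762, and 0.0112 with the block). PPDK had ratios of -0.09, 0.15 and -0.16 (each ± 0.145; lowest adjusted p, 0.541). SDP1-LIKE, the paralogue of the lipase gene, gave signals between 8.8 and 70.1 and was not tested, being under the filter. Of the 5 tested genes of the route, 4 were lower at 4 h in steady-state RNA, all but AIM1, beside 17.1% of all probe sets, and 5 in polysome RNA, beside 20.1%.

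**Figure D4:**
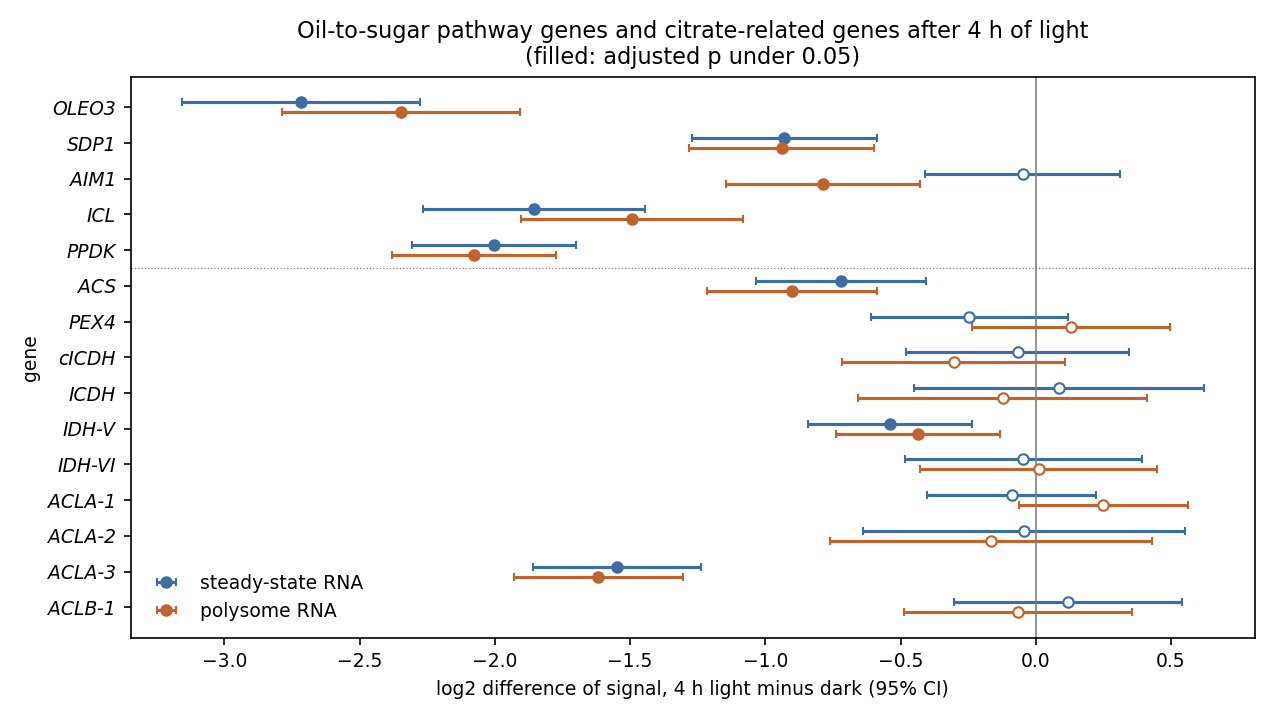
Log2 difference of signal between 4 h of light and dark, with 95% confidence intervals, for the 5 tested genes of the oil-to-sugar route (above the dotted line) and 10 genes chosen by name for isocitrate, ATP-citrate lyase, acetyl-CoA synthetase or peroxin (below it); blue is steady-state RNA, orange polysome RNA, and filled points have an adjusted p under 0.05. OLEO3 (-2.72 and -2.35) lies farthest to the left, and the open steady-state point of AIM1 stands apart from the other 4 genes of its block.

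Genes whose signal followed each of the 3 most closely were ranked by Pearson's r of log2 signals over the 18 arrays, among 8787 other tested probe sets that list 1 gene. The arrays share 6 groups, so r mostly reflects group levels. The changes given for these genes come from the same values as the ranking. SDP1 was followed most closely by AT1G07040 (r = 0.966), AKINBETA1, a subunit gene of the SnRK1 energy-sensing kinase (r = 0.961), and AT5G01210 (r = 0.96). Their steady-state changes at 4 h were -2.22, -1.96 and -1.88, each larger than that of SDP1. ICL was followed by AT3G05150 (r = 0.961), AT4G29950 (r = 0.958) and AAH, allantoate amidohydrolase of purine breakdown (r = 0.958), with steady-state changes of -2.49, -0.76 and -1.37.

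AIM1 was followed by AT5G05890 (r = 0.935), AT1G35612 (r = 0.935) and NTMC2T6.1 (r = 0.929). The values that follow are those the ranking used, so they are not a separate test of the AIM1 pattern. In polysome RNA these 3 changed at 4 h by -1.10, -1.30 and -0.69 (highest adjusted p, 0.00885), and in steady-state RNA they were at -0.27, -0.45 and -0.0042 (adjusted p of 0.412, 0.149 and 0.992). The polysome signal of NTMC2T6.1 was 556 ± 152 in the dark, 479 ± 14.3 at 0.5 h and 335 ± 32.3 at 4 h, while its steady-state signal was 588 ± 114, 573 ± 50.9 and 582 ± 65.9.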

How the data were processed

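RNA of 18 samples was measured on Affymetrix arrays. The deposited unit is array intensity. The submitters' processing notes name MAS5 without a version. The table holds 22810 probe sets on a linear scale, with a trimmed mean of 500.04 to 500.05 on every array. From these, 64 control probe sets were removed, 915 values under 1 were raised to 1, log2 was taken, and the 15922 probe sets with a mean at or above the 30th percentile were tested with limma 3.58.1 in R 4.3.3 (6 group means, moderated variances with an intensity trend, Benjamini-Hochberg adjustment over all tested). All 3 genes passed this filter. The dim SDP1-LIKE and EXPA7 probe sets did not. Probe sets were named by the array annotation, with symbols from RefSeq's TAIR10.1 table (13513 probe sets list 1 gene, 503 several, 8730 none). No coordinates are printed because no source used here states the authors' build.

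The members, lists, comparisons and alternatives were chosen with earlier results of these data known. The genes named are the 3 members, every measured gene of a 48-gene pathway list, the 3 probe sets of highest Pearson r with each member, and measured tissue markers. The list of citrate-related genes was added later, by name. Equal replicate numbers deviated together (correlations of 0.108 to 0.426 over 9 pairs of groups, and at most 0.0359 for unequal numbers), so the number was also fitted as a block. The labels do not say what a number shares. The scripts were tested on simulated data.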

Additional observations from a re-analysis of the deposited data

Results flagged for a closer look

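The response at 4 h differed from that at 0.5 h, by the direct test between these time points, for SDP1 in steady-state RNA (log2 difference -0.68) and polysome RNA (-0.89), for ICL in steady-state RNA (-1.82) and polysome RNA (-1.50), and for AIM1 in polysome RNA (-0.63). The last lost its call without 4 h polysome replicate 2 (-0.48, adjusted p = 0.054 in limma). The 2 responses share the dark arrays, which cancel in this difference.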

How the results depend on the processing

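The 4 h decreases of SDP1 and ICL in both kinds of RNA, that of AIM1 in polysome RNA, and the low polysome ratio of AIM1 at 4 h kept direction and call under all alternatives run. These were a fit of only the arrays compared, leaving out each array in turn, quantile normalization, a common median, no intensity trend, no filter, a filter at the 50th percentile, 32 added to each signal, the replicate block and, added after the data were seen, a random block and the block with 32 added. Of 330 values of the 3 genes under alternatives other than leaving out an array, 315 kept direction and call.

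The dark ratio of ICL lost its call with the compared arrays alone (-0.65, adjusted p = 0.0513), quantile normalization (-0.62), a common median (-0.64), no trend (-0.65) and no filter (-0.65). With the replicate block the 0.5 h ratios of AIM1 (-0.49) and ICL (-0.61) gained a call, as with the random block (-0.49 and -0.61) and the block with 32 added (-0.48 and -0.60), and ICL also with the stricter filter (-0.61); the block changed no other call of the 3 genes. Uncalled values near 0 turned sign: ICL at 0.5 h in steady-state RNA was 0.000316 with quantile normalization, and the ratio change of SDP1 at 4 h was 0.0079 with it and 0.11 with a common median. The common median moved the median of all probe sets by -0.11 at 4 h in steady-state RNA, by 0.14 in the 4 h ratio and by 0.12 in its change.

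With single arrays left out, 557 of 594 values kept direction and call. The dark ratio of ICL ranged from -0.81 to -0.49 and lost its call in 10 of 18 fits, 5 of them leaving out an array that is not in that comparison. AIM1 from 0.5 h to 4 h in polysome RNA ranged from -0.76 to -0.48. Uncalled values that turned sign were those of ICL at 0.5 h (-0.25 to 0.11 in steady-state, -0.15 to 0.17 in polysome RNA, -0.11 to 0.26 for the ratio change), AIM1 at 4 h in steady-state RNA (-0.20 to 0.056), and SDP1 at 0.5 h in polysome RNA (-0.14 to 0.052), in the ratio in the dark (-0.0037 to 0.18) and at 4 h (-0.042 to 0.16), and in the ratio change at 4 h (-0.12 to 0.080).

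Counts of all called probe sets moved by over 1.5 times with the block, from 227 to 409 and from 208 to 357 at 0.5 h in steady-state and polysome RNA, from 1313 to 2738, 1325 to 2944 and 2133 to 3677 for the ratio in the dark, at 0.5 h and at 4 h, and from 58 to 300 for its change at 4 h. With the compared arrays alone 88 were called at 0.5 h in steady-state RNA and 384 for the 0.5 h ratio, which a common median put at 875, and without the trend 13 for the ratio change. Leaving out arrays gave 147 to 389, 622 to 1688, 570 to 2123, 1257 to 2544 and 12 to 110 for the 0.5 h steady-state comparison, the 3 ratios and the ratio change at 4 h. The cause was not tested. The number of arrays limits the precision throughout.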

Other observations

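Genes around isocitrate, citrate and acetyl-CoA were picked by name from the annotation after the data were seen (names with isocitrate, citrate lyase, acetyl-CoA synthetase or peroxin). Of these, 12 were listed alone on a probe set by the array annotation, and 10 of the 12 were tested. At 4 h 3 of the 10 were lower and 0 higher than in the dark in steady-state RNA, with a median log2 change of -0.079 against -0.0067 over all probe sets, of which 17.1% were lower. The same counts held in polysome RNA (median -0.14 against -0.094), where 20.1% of all were lower. In both kinds of RNA these were ACLA-3, ACS and IDH-V. ACLA-3, a subunit gene of ATP-citrate lyase, which makes cytosolic acetyl-CoA from citrate, fell from 3034 ± 322 to 1038 ± 127 in steady-state RNA (-1.55 ± 0.149, adjusted p = 8.83e-08), and its change in polysome RNA was -1.62 ± 0.149 (adjusted p = 4.63e-08). The other measured subunit genes ACLA-1, ACLA-2 and ACLB-1 were at -0.09, -0.04 and 0.12 in steady-state RNA, with adjusted p of 0.703 or more (limma). In polysome RNA they were at 0.25, -0.17 and -0.07 (lowest adjusted p, 0.215 for ACLA-1). ACLB-2 was not listed alone on a probe set and was not measured. ACS, acetyl-CoA synthetase, changed by -0.72 ± 0.151 in steady-state RNA (adjusted p = 0.00081) and by -0.90 ± 0.151 in polysome RNA (adjusted p = 8.63e-05).

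Among the genes of isocitrate dehydrogenases, enzymes that use the same substrate as isocitrate lyase, IDH-V of the mitochondrial enzyme changed by -0.54 ± 0.145 in steady-state RNA (adjusted p = 0.00637) and by -0.44 ± 0.145 in polysome RNA (adjusted p = 0.0236). The cytosolic cICDH was at -0.07 ± 0.197 and -0.30 ± 0.197 (adjusted p = 0.839 and 0.257, the latter 0.0489 with the replicate block and 0.0964 with the random block, so that 1 of the 3 fits called it), with dark signals of 9044 ± 1452 and 4 h signals of 8624 ± 1317 in steady-state RNA. The other 2 tested, ICDH and IDH-VI, were not called in either kind of RNA, with 0.09 ± 0.256 and -0.05 ± 0.21 in steady-state RNA (adjusted p = 0.843 and 0.899) and -0.12 and 0.01 in polysome RNA (adjusted p = 0.764 and 0.978). In the ratio of polysome to steady-state signal at 4 h 1 of the 10 genes was called higher, beside 5.55% of all probe sets, and 0 lower. This was PEX4, a ubiquitin-conjugating enzyme of peroxisome protein import, at 0.58 ± 0.175 (adjusted p = 0.0327).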
